A study of Mus musculus with 7 samples.

Results

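The 10 genes described here are markers of fibro-adipogenic progenitors, the resident mesenchymal cells of skeletal muscle: Pdgfra, Cd34, Ly6a, Dpt, Gsn, Pi16, Mfap5, Clec3b, Tcf7l2 and Dpp4. They were chosen by symbol as progenitor identity genes, leaving out collagens and proteoglycans, and all 10 were found among the 21487 genes of the deposited table. RNA was measured in whole gastrocnemius, a calf muscle of the mouse, in 3 libraries of floxed controls (control 1 to 3, which the labels also call WT) and 4 libraries of mice with Park7, the gene of DJ-1, knocked out in skeletal muscle (MPARK7KO, knockout 1 to 4). Every muscle in both groups had been immobilized to induce atrophy, so the comparison was knockout against control under disuse, with no unimmobilized muscle. The sources used here give no Cre driver, age, sex or strain. Nor do they state that each library came from a separate animal, so p-values measure only the spread between these samples, which may be technical.

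Fibro-adipogenic progenitors lie between the fibres and around the vessels of muscle and are defined by the PDGF receptor alpha. They make connective tissue, secrete factors that sustain satellite cells and fibres, and can turn into fibroblasts or fat cells when muscle is damaged or denervated. A subset that expresses Dpp4 and Pi16 sits in the outer layer of vessels and in fascia and is held to be an upstream fibroblast state. Some of the markers are shared with other cells: Cd34 and Ly6a are also made by endothelium, and Gsn by muscle fibres and smooth muscle.

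The libraries held 24458343 to 26389010 counts, and the 10 markers were read with 50 to 13176 counts per library, so none was near the limit of detection. Park7 stood at 229 to 266 CPM (counts scaled to library size by the trimmed mean of M-values, TMM) in the controls and at 34.7 to 41.5 CPM in the knockouts, as the labels imply. The muscle fibre genes Ckm, Acta1, Mylpf, Tnnt3, Pvalb, Mybpc2 and Actn3 together took 62655 to 89836 CPM over the 7 libraries, as for whole muscle. Because this is bulk RNA, fewer cells of a type and less RNA per cell cannot be told apart.

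Of the 10 markers, 2 fell in the knockout and none rose. These were Mfap5, a protein of the microfibrils around elastic fibres, to 0.434 times the control mean, and Cd34, a cell surface sialomucin, to 0.659 times. The receptor that defines the cells, Pdgfra, did not pass the test and had a fitted ratio of 0.826, with a 95% interval on the log2 scale from -0.71 to 0.16. All 10 means were lower in the knockout, from 0.935 times the control for Dpt to 0.434 times for Mfap5, but in 8 of the 10 the groups overlapped. Among all 13409 genes tested, 8.23% were called lower and 6.67% higher by the quasi-likelihood test of edgeR, at a p adjusted over all of them (Benjamini-Hochberg) of under 0.05. The higher genes were thus 44.8% of all calls, and 33.2% with upper quartile scaling. Every knockout lay below every control in 14.8% of all tested genes and in 2 of the 10 markers. The median log2 fold change of the markers was -0.41, against 0.01 for all tested genes, and 3 of the 10 had an unadjusted p under 0.05, all lower. That median depended on the controls, at -0.21 without control 1 and -0.64 without control 2. DESeq2 called 3 lower and none higher. Mfap5 and Cd34 were called lower with any 1 library left out.

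**Figure D1:**
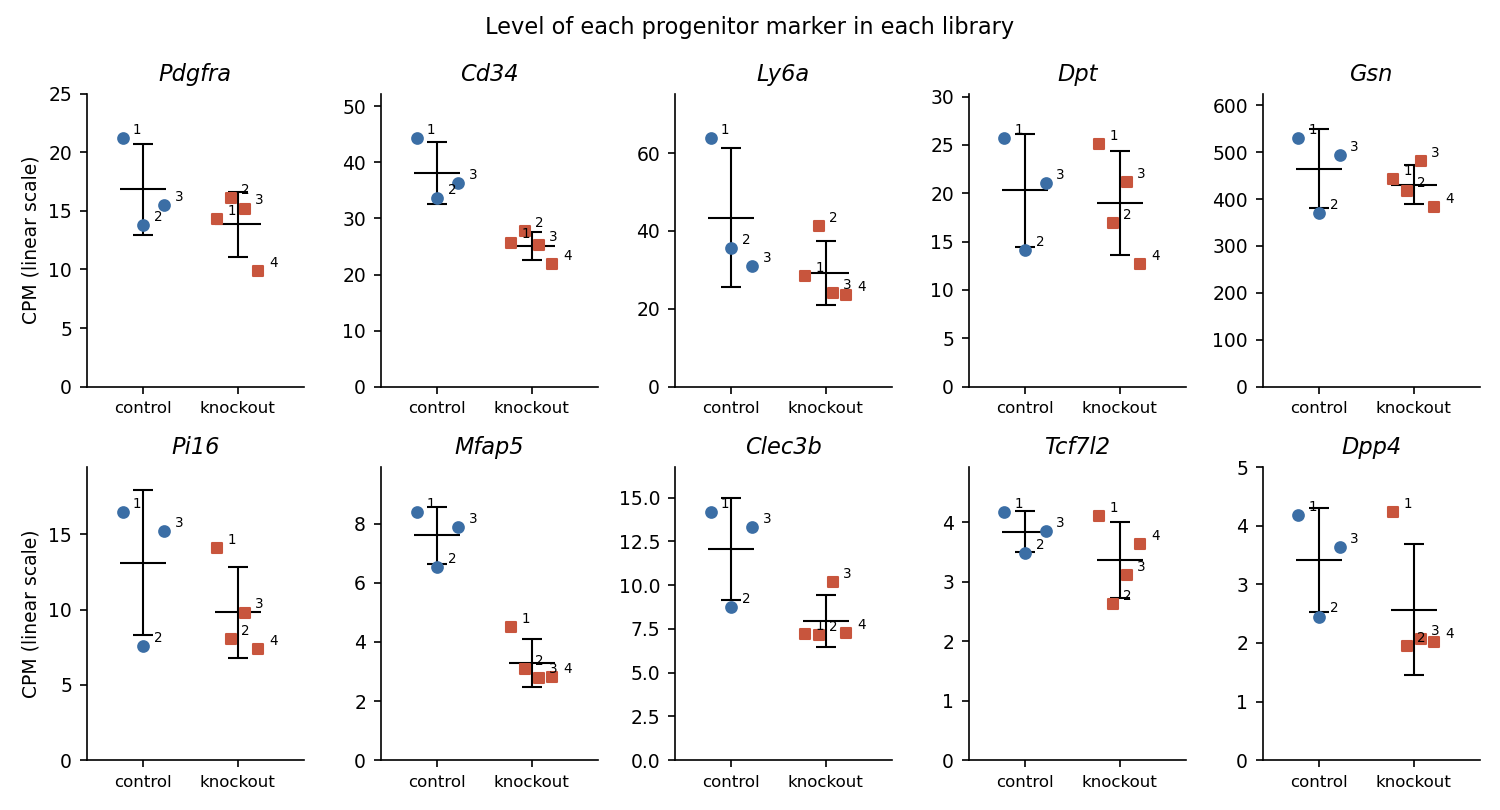
CPM of each marker (vertical axes, linear from 0, a separate scale for each gene) in the 3 controls (blue circles) and the 4 knockouts (red squares), numbered by replicate, with the group mean and SD in black. All 4 knockouts lie below all 3 controls for Mfap5 and Cd34, and the groups overlap for the other 8 genes.

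Per kilobase of the principal transcript, the control levels spanned a wide range. Gsn was the most abundant at 178 ± 32.3 CPM per kilobase (SD, n = 3), followed by Ly6a at 45.5 ± 18.7. Cd34 (15.5 ± 2.27), Clec3b (12.1 ± 2.92) and Dpt (11.8 ± 3.36) came next, with overlapping spreads. Cd34 lay above the other genes of this trio in each control library, whereas Clec3b and Dpt changed order between libraries. Mfap5 (5.05 ± 0.647) lay above Pi16 (3.28 ± 1.21) and Pdgfra (2.46 ± 0.571), and the latter pair overlapped. Tcf7l2 (1.2 ± 0.109) and Dpp4 (0.650 ± 0.168) were the least abundant. With the union of all exons as the length, Cd34 moved from the third to the fifth place and Dpp4 passed Tcf7l2.

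Mfap5 (chromosome 6, 122505845 to 122529290, plus strand, GRCm38) encodes microfibril-associated glycoprotein 2, which binds fibrillin and marks the fibroblasts of vessel walls and fascia. It read 8.40, 6.52 and 7.88 CPM in control 1 to 3, from 209, 170 and 204 counts, and 4.5, 3.08, 2.79 and 2.82 CPM in knockout 1 to 4, from 124, 81, 70 and 70 counts. Knockout 1 was the highest of its group and still lay below the lowest control. The control mean was 7.60 ± 0.974 CPM (SD, n = 3) and that of the knockouts 3.30 ± 0.811 CPM (SD, n = 4). On the log2 scale this was a fold change of -1.2 (SE 0.189, edgeR adjusted p = 0.00723). With 1 library left out it ran from -1.39 to -1.13.

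Cd34 (chromosome 1, 194938819 to 194961279, plus strand) encodes the surface antigen by which progenitors are sorted, and which endothelial and satellite cells also carry. The controls read 44.3, 33.7 and 36.3 CPM and the knockouts 25.7, 27.8, 25.2 and 21.8 CPM. The highest knockout was thus below the lowest control, and the knockouts lay closer together than the controls. Means were 38.1 ± 5.56 (SD, n = 3) and 25.1 ± 2.49 CPM (SD, n = 4), and the log2 fold change -0.60 (SE 0.118, edgeR adjusted p = 0.014), and from -0.68 to -0.49 with 1 library left out (adjusted p = 0.0133 to 0.0464).

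Ly6a (chromosome 15, 74994877 to 74998031, minus strand), the stem cell antigen Sca-1, is the other sorting marker and is likewise present on endothelium. Its levels were 63.8, 35.5 and 30.9 CPM in the controls and 28.3, 41.2, 24.1 and 23.6 CPM in the knockouts. Control 1 stood far above the rest, and knockout 2 lay above 2 of the 3 controls. The log2 fold change of -0.57 (SE 0.270) did not pass (edgeR adjusted p = 0.187), and it was -0.19 without control 1.

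Of 12 endothelial markers, 2 fell and none rose, and all 12 had fold changes of 0 or below (median log2 fold change -0.29). Tie1, a receptor tyrosine kinase gene, had a log2 fold change of -0.47 (edgeR adjusted p = 0.0162), and its call ended without control 1 (0.0543), control 2 (0.0518) or control 3 (0.0514). Egfl7, a secreted vascular factor, fell by 0.59 (adjusted p = 0.0172, and 0.0667 without control 3). None of the 12 fell without control 3, 1 fell without control 1 or control 2 or with replicate number in the model, and 3 fell without knockout 2. The defining markers Pecam1 and Cdh5, named after their values were seen, did not pass (log2 fold changes -0.26 and -0.39, adjusted p = 0.182 and 0.0725). The 12 genes summed to 345 to 414 CPM in the controls and 291 to 346 CPM in the knockouts. Their part in the values of Cd34 and Ly6a was not tested.

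The surface receptor and peptidase of the set had overlapping groups. Pdgfra (chromosome 5, 75152292 to 75198215, plus strand), the PDGF receptor alpha, read 21.2, 13.8 and 15.5 CPM in the controls and 14.3, 16.1, 15.2 and 9.87 CPM in the knockouts. Knockouts 1 to 3 fell within the range of the controls and only knockout 4 lay below it. The difference of -0.28 on the log2 scale (SE 0.193) did not pass (edgeR adjusted p = 0.36), and it was -0.08 without control 1.

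Dpp4 (chromosome 2, 62330073 to 62412231, minus strand), the dipeptidyl peptidase CD26 of the upstream fibroblast state, read 4.18, 2.45 and 3.63 CPM in the controls. The knockouts read 4.24, 1.94, 2.07 and 2.02 CPM. Knockout 1 was the highest of all 7 libraries, whereas the other 3 knockouts lay below every control. Its log2 fold change was -0.40 (SE 0.311, edgeR adjusted p = 0.407), but -0.77 without knockout 1 (adjusted p = 0.0599).

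Among the secreted and matrix-bound markers other than Mfap5, Clec3b came nearest to the threshold. Clec3b (chromosome 9, 123150946 to 123157432, plus strand) encodes tetranectin, a secreted lectin that binds plasminogen. It read 14.2, 8.74 and 13.3 CPM in the controls and 7.22, 7.15, 10.2 and 7.25 CPM in the knockouts, with 3 knockouts below every control and knockout 3 above control 2. The log2 fold change of -0.60 equalled that of Cd34 in size but had a wider error (SE 0.194, edgeR adjusted p = 0.07). DESeq2 called it (adjusted p = 0.038), in a test that called 8.04% of all genes lower, and so did edgeR without control 2 (adjusted p = 0.0343).

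Pi16 (chromosome 17, 29317680 to 29330593, plus strand), a peptidase inhibitor of the CAP family, read 16.5, 7.59 and 15.2 CPM in the controls and 14.1, 8.03, 9.80 and 7.38 CPM in the knockouts. Control 2 lay at the level of the lowest knockouts, a 2.18-fold spread within the controls alone. This gave a log2 fold change of -0.41 (SE 0.291, edgeR adjusted p = 0.362).

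Dpt (chromosome 1, 164796644 to 164824266, plus strand), dermatopontin, is an adhesive protein of the matrix that marks fibroblasts of all tissues. Its controls read 25.7, 14.1 and 21.1 CPM and its knockouts 25.1, 16.9, 21.2 and 12.7 CPM, so that both groups covered nearly the same range. The log2 fold change was -0.10 (SE 0.249, 95% interval -0.66 to 0.47, edgeR adjusted p = 0.825) and became 0.10 without control 1, 0.06 without knockout 4 and 0.08 with replicate number in the model. Its direction was therefore not settled by these libraries.

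Gsn (chromosome 2, 35256380 to 35307892, plus strand) encodes gelsolin, which severs actin filaments in the cell and is also secreted into plasma. It read 529.7, 369.6 and 494 CPM in the controls and 443, 417, 481 and 382 CPM in the knockouts. All 4 knockouts fell inside the range of the controls. Its difference was -0.11 on the log2 scale (SE 0.132, edgeR adjusted p = 0.605), with a 95% interval of -0.41 to 0.19.

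Tcf7l2 (chromosome 19, 55741820 to 55933654, plus strand), the lone transcription factor of the set, acts with beta-catenin in Wnt signalling and marks connective tissue fibroblasts of limb muscle. The controls read 4.18, 3.49 and 3.86 CPM and the knockouts 4.10, 2.63, 3.11 and 3.63 CPM. Knockouts 2 and 3 lay below every control and knockouts 1 and 4 among them. Its fold change was -0.19 on the log2 scale (SE 0.176, edgeR adjusted p = 0.494). In 4 of the 7 libraries its expected count was not whole, which marks reads shared with another gene.

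**Figure D2:**
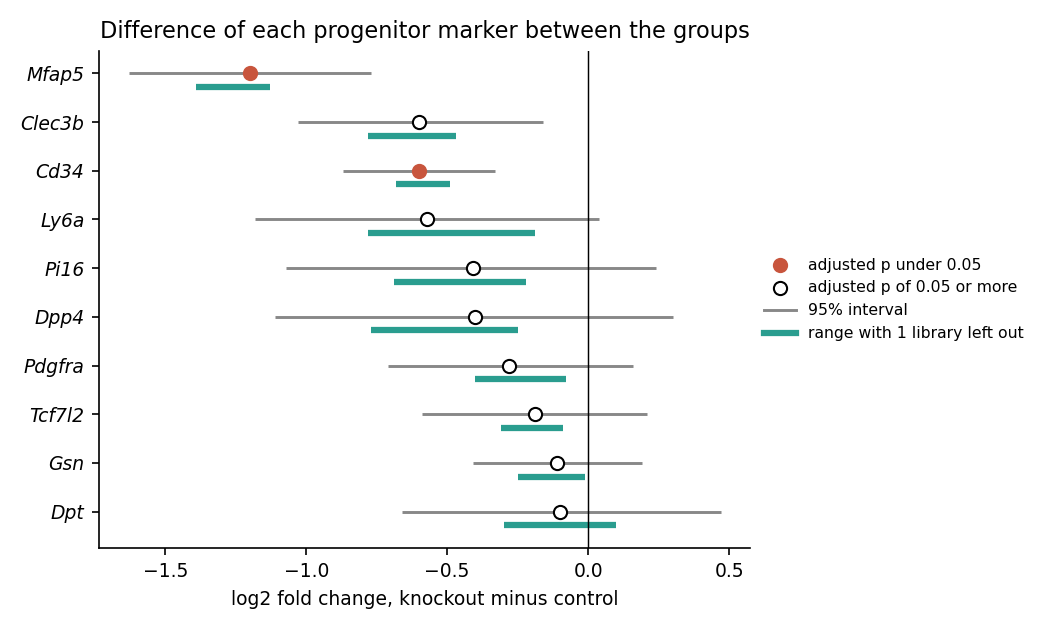
Log2 fold change, knockout minus control (horizontal axis), of the 10 markers, with the 95% interval in grey and the range over the 7 fits that each leave out 1 library in green. Filled red circles mark Mfap5 and Cd34, the genes called at an adjusted p under 0.05, and 7 of the 10 intervals include 0.

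The markers followed the library as well as the group. Control 1 was the highest of the 3 controls for all 10 genes and the highest of all 7 libraries for 9, the exception being Dpp4. Control 2 was the lowest control for 9 genes, all but Ly6a, and lay below the control mean for all 10. Knockout 4 was the lowest of all libraries for Pdgfra, Cd34, Ly6a, Dpt and Pi16 and lay below the control mean for all 10, as knockout 2 did. In knockout 1, Dpt and Dpp4 stood at 124% of the control mean and Mfap5 at 59.2%. The summed CPM of the 10 genes, of which Gsn is the larger part, was 732, 495 and 642 in the controls and 570.3, 542, 595 and 473 in the knockouts.

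**Figure D3:**
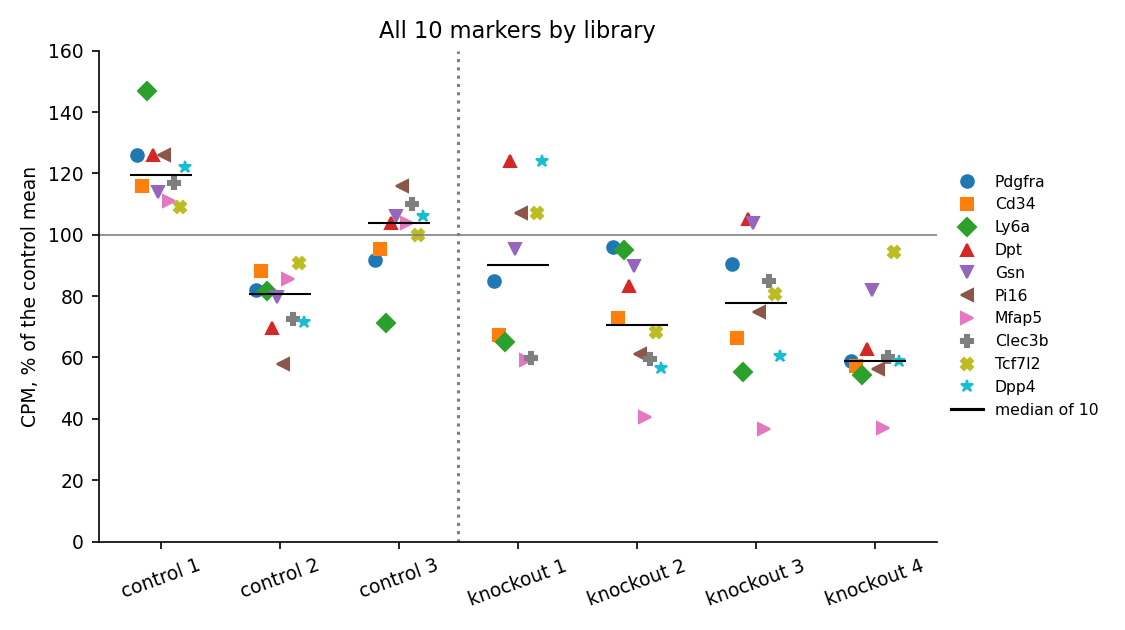
CPM of the 10 markers in each library as a percentage of the control mean of that gene (vertical axis, linear from 0), with the median of the 10 as a black bar. All 10 markers of control 1 lie above 100%, all 10 of control 2, knockout 2 and knockout 4 lie below it, and Mfap5 is the lowest marker in knockouts 1 to 4, at 36.7% to 59.2%.

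Each of the other 9 markers was also taken as a ratio to Pdgfra within the same library. With 3 against 4 libraries the test of these ratios could not give a p under 0.05. The Mfap5 to Pdgfra ratio was 0.396, 0.473 and 0.511 in the controls and 0.316, 0.192, 0.184 and 0.287 in the knockouts, without overlap. On the log2 scale it differed by -0.94 (2-sided exact permutation p = 0.0571, and 0.514 adjusted over the 9 ratios). The Cd34 to Pdgfra ratio was 2.09, 2.44 and 2.35 in the controls and 1.80, 1.72, 1.66 and 2.20 in the knockouts, a log2 difference of -0.32 (exact permutation p = 0.114, adjusted p = 0.514). The other 7 ratios differed by -0.30 to 0.18 on the log2 scale, each with an adjusted p of 0.6 or more. A ratio without overlap, as for Mfap5, gets the smallest p that this test can give, 0.0571. None of the 9 ratios could therefore pass, and none of the 9 adjusted p-values can show that the ratios were alike.

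Of 26 other identity genes of muscle fibroblasts tested, 6 fell and 1 rose (median log2 fold change -0.25, with 20 of 26 below 0). Igfbp6, a secreted inhibitor of IGF2, fell from 19.9 ± 4.11 to 9.80 ± 1.09 CPM (log2 fold change -1.02, SE 0.152, edgeR adjusted p = 0.00645). Cd248, endosialin of stromal cells, fell from 6.97 ± 0.860 to 3.29 ± 0.605 CPM (log2 fold change -1.08, adjusted p = 0.00667). Adam12, a metalloprotease of activated progenitors, and Osr2, a transcription factor of connective tissue, had log2 fold changes of -2.19 and -1.35 (adjusted p = 0.0129 and 0.0215), both from about 1 CPM or less. Igfbp6, Cd248 and Adam12 were called without each library in turn, and Osr2 not without control 1 (0.0685) or control 3 (0.0772). The log2 fold change of Adam12 was -2.82 without knockout 1. Fewer genes of the list fell without control 3 (3), without control 1, knockout 3 or knockout 4 (4 each) and with replicate number in the model (2). The number was 5 without knockout 2 and with a filter on a mean count of at least 10.

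Cxcl14, a chemokine gene named after its values were seen, was the lone rise in that list by edgeR with all libraries. It went from 11.9 ± 2.76 to 28.3 ± 10.4 CPM (log2 fold change 1.25, SE 0.301, edgeR adjusted p = 0.0274), although knockout 4 at 14.7 CPM lay just below control 1. The call ended without control 2 (0.0808), control 3 (0.0934) or knockout 3 (0.0676). Hsd11b1, which activates glucocorticoids and was also named after its values were seen, had a log2 fold change of 0.82 (edgeR adjusted p = 0.0667) with overlapping groups. It was called higher by DESeq2 (0.0225), without knockout 4 (0.0163) and with replicate number in the model (0.0215), when 2 genes of the list rose. Prrx1, a transcription factor of limb mesenchyme, and the fibroblast genes Scara5, Abca8a and Smoc2, also named after their values were seen, were not called. Their log2 fold changes were -0.27, -0.14, -0.10 and 0.27 (edgeR adjusted p = 0.241, 0.662, 0.746 and 0.231).

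Of 16 microfibril and elastic fibre genes, the partners of Mfap5 in the matrix, 4 fell and none rose, and all 16 had negative fold changes (median -0.41). Ltbp4, which tethers latent TGF-beta to microfibrils, fell from 53.2 ± 2.29 to 34.6 ± 1.09 CPM (log2 fold change -0.62, SE 0.0707, edgeR adjusted p = 0.00298). The matrix protein gene Fbln2 had a log2 fold change of -0.59 (adjusted p = 0.00641). Both were called without each library in turn. Loxl1, a cross-linking oxidase of elastin, fell by 0.76 and Fbn1, fibrillin 1, by 1.04 (adjusted p = 0.0321 and 0.0496). Loxl1 lost its call without control 1 (0.0839), control 3 (0.114), knockout 2 (0.0512) or knockout 4 (0.0547), and Fbn1 without any library but knockout 1 (0.0582 to 0.180). Without control 1, control 3, knockout 2 or knockout 4 the number that fell was 2.

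Of the 6 other genes for PDGF ligands and receptors, 3 fell and 1 rose. Pdgfc, a ligand of PDGF receptor alpha, fell from 1.59 ± 0.654 to 0.554 ± 0.138 CPM (log2 fold change -1.51, SE 0.335, edgeR adjusted p = 0.0211), a call lost without control 1 (0.0642) or knockout 3 (0.0552). Pdgfb, the ligand that recruits pericytes, rose from 19.9 ± 2.39 to 29.1 ± 4.46 CPM (log2 fold change 0.55, adjusted p = 0.031). The call of Pdgfb ended without control 1 (0.0971), control 3 (0.11), knockout 1 (0.0595) or knockout 3 (0.079). Pdgfrb, the receptor of pericytes and fibroblasts, and Pdgfrl, a receptor-like protein, fell by 0.37 and 1.67 (adjusted p = 0.0458 and 0.0339). Pdgfrb was called only without knockout 1 and Pdgfrl only without control 2 when 1 library was left out, and none of the 6 fell without control 1 or knockout 3. With replicate number in the model 1 fell, Pdgfrl, and the calls of Pdgfc (0.0572) and Pdgfrb (0.0654) ended.

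Of 10 tested genes for signals that progenitors secrete, 2 fell and none rose (median -0.38). Il15, a cytokine that muscle fibres also make, fell from 4.67 ± 0.192 to 1.6 ± 0.249 CPM (log2 fold change -1.55, SE 0.161, edgeR adjusted p = 0.00239), with or without any 1 library. Fgf7, a growth factor of mesenchymal cells, had a log2 fold change of -0.74 (adjusted p = 0.0423) and, with 1 library left out, was called only without knockout 2 (0.066 to 0.123 otherwise). In the list 1 gene fell without any of the controls, knockout 1 or knockout 3.

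Of 21 Wnt and TCF genes, the pathway of Tcf7l2, 3 fell and 2 rose (median 0.07). Apc and Axin1, scaffolds of the complex that degrades beta-catenin, rose by 0.37 and 0.54 on the log2 scale (edgeR adjusted p = 0.0107 and 0.0109). Dkk3, a secreted protein of the Dickkopf family, fell by 1.79 (adjusted p = 0.0109) and the co-receptor gene Lrp6 by 0.40 (adjusted p = 0.0186). Apc lost its call without control 3 (0.0509), when 1 gene rose, and Lrp6 without any control (0.0509 to 0.0686). In the list 1 gene fell without control 2 and with replicate number in the model.

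Relatives of the markers were measured too. Among 10 tested relatives of Ly6a, Cd34 and Pi16, edgeR called 2 lower and none higher, and DESeq2 called 2 lower and 1 higher. Podxl, podocalyxin, a sialomucin related to Cd34 that endothelium also makes, fell from 50.5 ± 1.88 to 36.3 ± 2.04 CPM (log2 fold change -0.48, SE 0.0758, edgeR adjusted p = 0.00733). Cd59a, a complement inhibitor of the Ly6 family, fell by 0.61 (adjusted p = 0.0201, and 0.0530 without control 2 and 0.0757 without control 3, when 1 gene of the list fell). Podxl2, endoglycan, another sialomucin related to Cd34, named after its values were seen, went the other way. It was at 40.5 ± 3.54 CPM in the controls and 59.0 ± 12.4 CPM in the knockouts, without overlap (log2 fold change 0.54, SE 0.159, edgeR adjusted p = 0.0501). It was called by DESeq2 (0.0136), without knockout 1 (0.0233) and with replicate number in the model (0.0308). Of 7 relatives of Dpp4 edgeR called none, with 1 at an unadjusted p under 0.05. This was Dpp8, an intracellular peptidase, with a log2 fold change of 0.51 (adjusted p = 0.0559), which was called by DESeq2 (0.0158), with replicate number in the model (0.0395) and without knockout 2 (0.00821). Of 5 relatives of Gsn none was called by either tool with all libraries, and none had an unadjusted p under 0.05. Without knockout 1, Avil, advillin, was called higher (log2 fold change 0.99, adjusted p = 0.0187), against 0.73 (adjusted p = 0.19) with it.

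Genes linked to the fates open to the progenitors fell in part, but which cells made their RNA was not tested. Of 13 tested myofibroblast and TGF-beta genes, 4 fell and 1 rose (median -0.42). Fn1, fibronectin, fell from 57.4 ± 22.5 to 22.8 ± 5.70 CPM (edgeR adjusted p = 0.0179) and Acta2, smooth muscle actin, from 34.7 ± 3.41 to 25.8 ± 1.89 CPM (adjusted p = 0.0226). Postn, periostin, read 5.99, 11.7 and 43.5 CPM in the controls and 3.56, 1.22, 0.757 and 1.13 CPM in the knockouts, with control 3 far above the rest. Its log2 fold change of -3.59 (adjusted p = 0.0143) was -2.39 without control 3 and -4.30 without knockout 1. The receptor gene Tgfbr1 rose by 0.40 (adjusted p = 0.0302). The calls of Fn1 (0.0507 to 0.0661), Acta2 (0.0553 to 0.0837) and Tgfbr1 (0.0627 to 0.0987) were lost without control 1 or control 3, that of Fn1 also without knockout 3, that of Acta2 also without knockout 4, and that of Tgfbr1 also without control 2, knockout 3 or knockout 4. The call of Postn ended with replicate number in the model (0.0806). In the list 1 gene fell in that fit and without control 1 or control 3, and 2 fell without knockout 4.

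Of 9 adipocyte markers, 3 fell and none rose (median -0.55). Lpl, lipoprotein lipase, which muscle fibres also make, fell from 719.6 ± 166 to 171 ± 61.8 CPM (edgeR adjusted p = 0.00644, called without each library in turn). Fabp4, which endothelium also makes, had a log2 fold change of -0.54 (adjusted p = 0.034, called only without knockout 1 when 1 library was left out, 0.0558 to 0.103 otherwise). Retn, named after its values were seen, fell by 1.12 (adjusted p = 0.0456, called only without control 2). Adipoq and Plin1, which define fat cells and were named after their values were seen, were not called (log2 fold changes -0.80 and -0.55, edgeR adjusted p = 0.206 and 0.404), although Adipoq was without knockout 1 (0.0277). In the list 2 fell without control 2, 3 without knockout 1 and 1 without any other library.

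**Figure D4:**
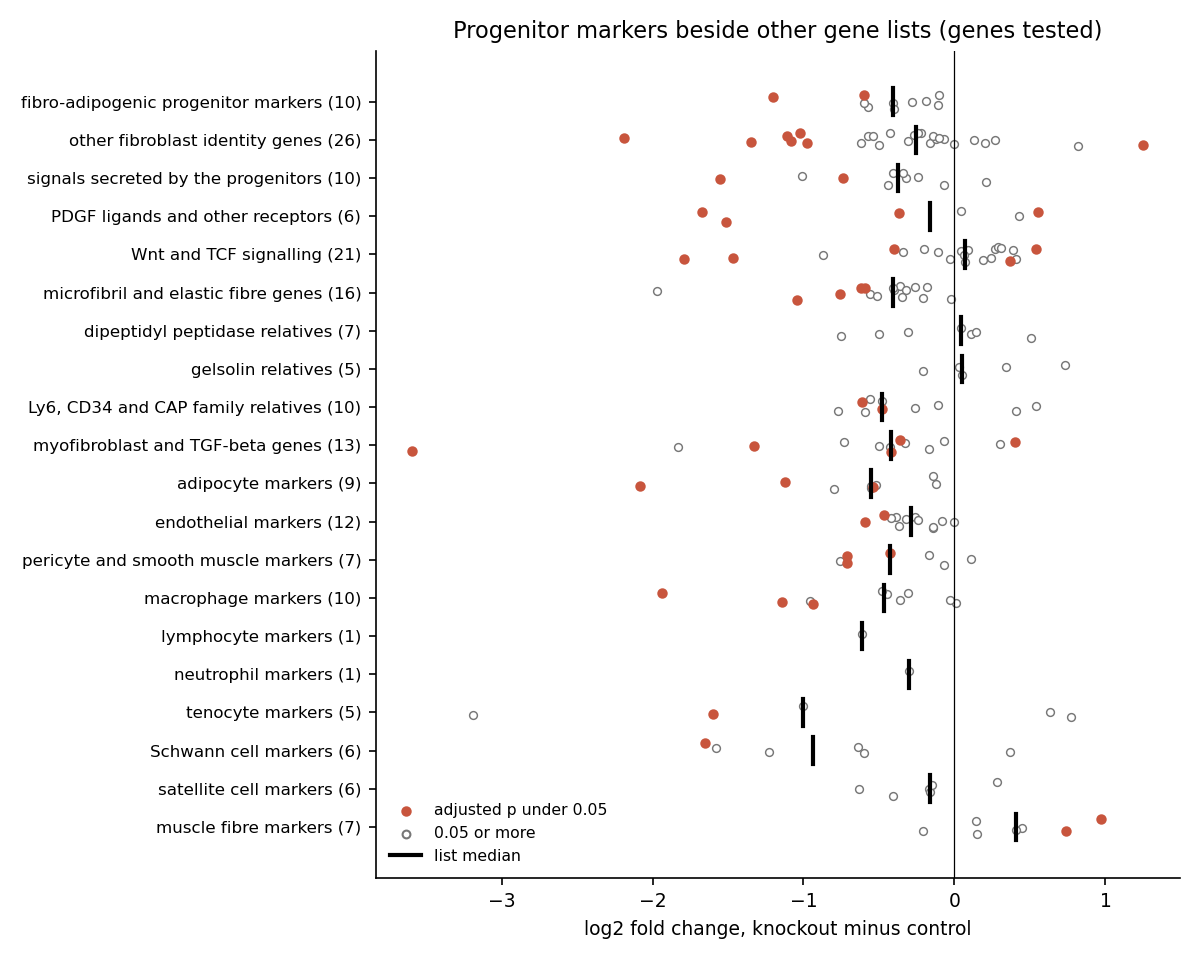
Log2 fold change, knockout minus control (horizontal axis), of every tested gene of the 10 markers and 19 other lists (rows, number tested in brackets), with called genes as filled red circles and each list's median as a black bar. The bar of the 10 markers lies at -0.41, beside -0.25 for other fibroblast genes, -0.29 for endothelium and 0.41 for muscle fibres.

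Some markers of several other cells in the muscle moved in the same direction as Mfap5 and Cd34, and their part in those results was not tested. Of 10 macrophage markers 3 fell and none rose, and 9 had negative fold changes. Their summed level was 57.2 to 92.7 CPM in the controls and 39.2 to 63.3 CPM in the knockouts. Csf1r went from 9.58 ± 0.330 to 4.97 ± 0.626 CPM (edgeR adjusted p = 0.00452). Mrc1 and Cd163, named after their values were seen, were nearly level (log2 fold changes 0.01 and -0.03, adjusted p = 0.99 and 0.96). C1qa, C1qb and C1qc, also named after their values were seen, were not called (-0.31, -0.36 and -0.48, adjusted p = 0.564, 0.433 and 0.266). Of 7 pericyte and smooth muscle markers 3 fell and 6 had negative fold changes, with sums of 617 to 706 and 615 to 651 CPM. Cspg4 went from 10.9 ± 0.877 to 6.64 ± 0.604 CPM (adjusted p = 0.00781). Myh11 fell by 0.43 (adjusted p = 0.0147), a call lost without control 1 (0.0568) or control 3 (0.0527). Rgs5, Notch3 and Abcc9, named after their values were seen, were not called (log2 fold changes -0.17, -0.07 and 0.11, adjusted p = 0.477, 0.658 and 0.437). Csf1r and Cspg4 were called without each library in turn, but the macrophage count was 1 without control 3, knockout 3 or knockout 4, and 5 without knockout 2, and the pericyte count 1 without control 1 or control 3. Of 6 satellite cell markers neither edgeR nor DESeq2 called any, none had an unadjusted p under 0.05, and 1 rose without knockout 2 (sums of 48.8 to 54.9 and 46.0 to 58.8 CPM). Of 7 muscle fibre genes 2 rose, Actn3 and Mybpc2, by 0.74 and 0.97 on the log2 scale (adjusted p = 0.0214 and 0.039). Actn3 lost its call without control 1 (0.0867) or control 2 (0.0738), Mybpc2 without any library but knockout 1 (0.0571 to 0.142), and none of the 7 rose without control 1 or control 2, 1 without any other library but knockout 1, and 4 with DESeq2.

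Control 3 stood apart in tendon genes. The 7 tenocyte markers summed to 165 CPM in control 3, against 47.0 and 50.9 CPM in the other controls and 16.5 to 52.1 CPM in the knockouts. Of the 5 tested, 3 had negative fold changes and 1 was called. This was Thbs4, a tendon matrix gene, which fell at a log2 fold change of -1.6 (edgeR adjusted p = 0.0233), though not without control 3 (0.0671) or knockout 3 (0.061). Scx and Chad, named after their values were seen, had positive fold changes (0.63 and 0.77 on the log2 scale). Neither was called with all libraries (edgeR adjusted p = 0.237 and 0.634), and 1 gene of the list rose without knockout 2. Lymphocyte and neutrophil markers were near the floor, at sums of 1.03 to 3.02 and 0.383 to 1.52 CPM over the 7 libraries. Without control 1 the log2 fold change of Mfap5 was -1.13 and that of Cd34 -0.49, and without control 3 they were -1.17 and -0.63, all called.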

How the data were processed

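Libraries were read as 150 bp pairs, per the labels. Per the submitters' processing notes, the authors aligned reads to mm10 with STAR 2.7.10a and quantified genes with RSEM 1.2.28. They deposited 1 table of expected counts per gene symbol for 7 libraries. Its annotation and strand setting were not given in the sources used here. In it 7.59% of values are not whole, which marks reads shared between genes, and 24 symbols had become dates.

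Counts were rounded and tested in R 4.3.3 with edgeR 4.0.16 (filterByExpr, TMM, quasi-likelihood F test, legacy = FALSE) over 13409 genes, with no covariate. P-values were adjusted over all of them (Benjamini-Hochberg), with calls made under 0.05. Levels are CPM on TMM library sizes. Positions and principal transcript lengths are from GENCODE M21 (GRCm38, the build that mm10 names). Ratios to Pdgfra used counts plus 0.5.

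The markers, the 19 other lists and the tests were chosen with earlier results of these data known. The result of 1 of these lists is not reported here. Genes named were the 10 markers, Park7 and, per list, the 4 called genes with the smallest p (2 for cell type markers), or 2 (1) where none was called. Of those in the reported lists, Dpp6, Svil, Calcr and Ptprc were not called and are not described above. Any other gene given with values is said to be named after its values were seen. The test was checked on simulated counts. It called 44.8% of the 1.5-fold, 70.1% of the 2-fold and 97% of the 4-fold changes put in, and 5.37% of its calls were false. Many changes of 1.5-fold were thus missed there. Alternatives were scaling by RLE or by the upper quartile, DESeq2 1.42.0, a robust prior, no filter or one on mean counts (10), a replicate block and each library left out. Legacy dispersions were added after seeing the data.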

Additional observations from a re-analysis of the deposited data

Results flagged for a closer look

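In a group of 4, a library was marked where its gap to the nearest other exceeded 0.829 of the group's range, which chance gives in about 1 in 20 groups. Of the 54 named genes, 5 were marked in the knockouts, 2 of them among the 10 markers. Clec3b was highest in knockout 3 at 10.2 CPM, against 7.15 to 7.25 CPM in the other 3. Dpp4 was highest in knockout 1 at 4.24 CPM, against 1.94 to 2.07 CPM. Postn was highest in knockout 1 at 3.56 CPM, against 0.757 to 1.22 CPM, and Fabp4 in the same library at 114 CPM, against 77.4 to 81.4 CPM. Lpl was lowest in knockout 3 at 78.1 CPM, against 196 to 207 CPM in the other 3.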

How the results depend on the processing

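Mfap5 and Cd34 were called lower under all 15 alternatives run, and the number of markers called was 2 or 3 in each. Clec3b was the third, at -0.59 with DESeq2 and -0.78 without control 2 (-0.78 to -0.47 over the libraries left out). Of the markers only Dpt changed sign, to 0.08 with the replicate block and to between -0.30 and 0.10 with 1 library left out.

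The genes called in all numbered 1998 (1103 lower, 895 higher). With the replicate block they were 1273 (696 and 577), and with 1 library left out 793 to 2057 in all, 528 to 1091 lower and 258 to 966 higher. Upper quartile scaling gave 33.2% of calls as higher, against 44.8% with TMM. Of the 177 tested genes of the other lists 44 were called, and 16 to 42 with 1 library left out. Over all tested genes 8.23% were called lower and 6.67% higher. Csf3r, a neutrophil marker that did not pass, went from -0.30 to 0.10 without control 3.

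None of the ratios to Pdgfra passed. That of Tcf7l2 (0.07) became -0.03 with the sum of the other markers as denominator and ran from -0.13 to 0.26 with 1 library left out. That of Pi16 (-0.11) ran from -0.33 to 0.09, with 0.06 without knockout 2, and that of Dpp4 (-0.18) from -0.43 to 0.00.

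The replicate numbers were not taken to pair the samples. Same-numbered libraries had correlations of their deviations from the group mean of 0.0945, 0.134 and 0.0854, and each correlated best with its own number, a hint from the data only. With the block Mfap5 stood at -1.15 (adjusted p = 0.0192) and Cd34 at -0.53 (0.0466). Among the genes named from the other lists it ended the calls of Adam12 (0.051), Osr2 (0.079), Fgf7 (0.0737), Pdgfc (0.0572), Pdgfrb (0.0654), Lrp6 (0.0503), Cd59a (0.0656), Acta2 (0.054), Postn (0.0806), Fabp4 (0.0616), Egfl7 (0.0608) and Lyz2 (0.103).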
